A study of Mus musculus with 2 samples.

Results

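Cycling myoblasts are described here as single cells of mouse plantaris muscle that carried transcripts of the myogenic lineage together with transcripts of cell division. They numbered 142 of the 18975 cells that passed the cell filters, and 140 of them came from the tenotomy library and 2 from the sham library. A member had at least 500 UMIs (unique molecular identifiers, which count captured RNA molecules), at least 300 detected genes and at most 10% mitochondrial UMIs. It had at least 2 UMIs over the myogenic genes Pax7, Myf5, Myod1, Cdh15 and Chrdl2, at most 1 UMI of each of Ptprc, Pecam1 and Pdgfra, which mark blood, endothelial and mesenchymal cells, and fewer than 3 UMIs over the differentiation genes Myog, Mymk, Mymx, Tnnt2 and Actc1. Among these undifferentiated myogenic cells, at least 2 UMIs over the 6 cycle genes Mki67, Top2a, Cdk1, Ccnb1, Cenpf and Birc5 made a cell cycling, and 0 or 1 made it non-cycling. The 140 cycling cells of the tenotomy library were set against 162 non-cycling cells of that library, and 486 non-cycling cells of the sham library are given beside them.

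In 5 male C57BL/6 mice aged 12 weeks, 1 leg received the treatment labelled tenotomy and the opposite leg served as sham. The treatment label does not name the tendon that was cut, and the plantaris of each leg was sampled. Muscles were collected on day 4 and pooled into 1 library for each treatment, so both libraries came from the same 5 animals and the labels do not tie a cell to a mouse. The sequenced cells were live mononuclear cells, sorted after collagenase digestion as positive for Calcein AM and negative for PI, so multinucleated fibres were not sampled as cells. With 1 library a treatment there was no test between libraries, and treatment and library cannot be told apart. All intervals are exact 95% intervals that cover counting error only, and cells of a library are not replicates.

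Muscle stem cells, or satellite cells, lie beneath the basal lamina of the fibre, express the transcription factor Pax7 and are quiescent in uninjured muscle. On activation they raise the transcription factor Myod1 and divide as myoblasts, which later switch on Myog, leave the cell cycle and fuse. A dividing cell duplicates its DNA in S phase, with a replication machinery largely under the control of E2F factors, and then passes through G2 and mitosis, whose genes are largely controlled by the DREAM and MMB complexes through CHR elements and by the factor NF-Y through CCAAT boxes.

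Promoters of 6 cycle genes are shown, so that these elements can be looked for next to genes that chose the cells or had the highest lower interval bounds among phase genes of the RefSeq table. The set is the gate genes Mki67 and Top2a, the G2 and mitosis genes Kif11 and Nusap1, which encode a spindle kinesin and a spindle-associated protein, and the S phase genes Pclaf and Rad51ap1, which encode a PCNA-associated factor and a DNA repair protein. Each sequence is the 200 bases before the gene's start, read 5′ to 3′ on the gene's strand, from RefSeq on GRCm38.p6, the assembly that UCSC calls mm10. Capitals mark CCAAT, the CHR forms TTTGAA and TTCGAA, and the E2F forms TTTGGCGC, TTTCCCGC, TTTGCCGC and TTTCGCGC, on either strand. The windows are chr7:135716380-135716579 (minus strand) for Mki67, chr11:99024190-99024389 (minus strand) for Top2a, chr19:37376182-37376381 (plus strand) for Kif11, chr2:119618098-119618297 (plus strand) for Nusap1, chr9:65890123-65890322 (plus strand) for Pclaf and chr6:126939588-126939787 (minus strand) for Rad51ap1.
Mki67: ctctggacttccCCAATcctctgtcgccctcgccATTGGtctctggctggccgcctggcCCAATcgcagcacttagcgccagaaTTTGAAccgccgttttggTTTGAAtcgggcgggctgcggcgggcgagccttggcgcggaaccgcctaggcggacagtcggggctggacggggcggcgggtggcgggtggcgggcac
Top2a: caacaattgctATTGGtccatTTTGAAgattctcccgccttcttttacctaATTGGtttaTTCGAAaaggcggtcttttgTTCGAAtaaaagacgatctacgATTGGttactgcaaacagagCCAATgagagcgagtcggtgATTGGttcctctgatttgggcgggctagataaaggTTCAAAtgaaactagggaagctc
Kif11: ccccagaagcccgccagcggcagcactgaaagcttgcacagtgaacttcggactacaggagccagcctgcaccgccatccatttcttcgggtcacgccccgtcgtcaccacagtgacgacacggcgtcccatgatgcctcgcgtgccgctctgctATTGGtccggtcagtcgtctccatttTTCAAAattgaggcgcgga
Nusap1: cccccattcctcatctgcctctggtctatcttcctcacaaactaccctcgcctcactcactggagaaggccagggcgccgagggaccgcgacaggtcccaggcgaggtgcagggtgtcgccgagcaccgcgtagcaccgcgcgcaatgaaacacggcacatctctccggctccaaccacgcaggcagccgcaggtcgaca
Pclaf: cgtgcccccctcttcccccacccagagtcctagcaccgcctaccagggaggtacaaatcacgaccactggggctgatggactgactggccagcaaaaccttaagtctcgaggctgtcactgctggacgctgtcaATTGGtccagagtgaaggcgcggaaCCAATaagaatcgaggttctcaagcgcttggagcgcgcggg
Rad51ap1: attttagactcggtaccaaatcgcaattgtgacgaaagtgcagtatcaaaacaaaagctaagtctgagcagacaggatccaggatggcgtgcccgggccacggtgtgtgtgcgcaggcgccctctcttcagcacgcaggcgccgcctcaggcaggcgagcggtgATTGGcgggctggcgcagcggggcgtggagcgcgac
The Mki67 window held 3 CCAAT and 2 CHR matches, the Top2a window 5 and 4, and the Kif11 window 1 and 1. The Pclaf window held 2 CCAAT matches and the Rad51ap1 window 1, with 0 CHR matches in either, and none of the searched letters occurred in the Nusap1 window. Of the list of G2 and mitosis genes, 54 of 67 genes had a promoter in the RefSeq table, and 72.2% of these held a CCAAT match, 38.9% a CHR match and 35.2% both. Of a list of S phase genes, 45 of 59 genes had one, and 57.8% held CCAAT, 11.1% a CHR match and 9 of 45 an E2F match. Over all 27025 promoters of the table, these shares were 30.02% for CCAAT, 13.7% for CHR, 4.17% for both and 1.63% for E2F, while 5.56% of the G2 and mitosis promoters held an E2F match. A match describes letters in this window and is not evidence of binding.

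The libraries differed in how many of their undifferentiated myogenic cells carried cycle transcripts. In the tenotomy library 140 of 302 such cells were cycling, or 46.4% (40.6 to 52.2, Clopper-Pearson), against 2 of 488, or 0.410% (0.0497 to 1.47), in the sham library. In the tenotomy library 137 cells had 0 cycle UMIs, 25 had 1, 35 had 2 to 9, 29 had 10 to 29 and 76 had 30 or more. In the sham library 473 cells had 0, 13 had 1, 1 had between 10 and 29 and 1 had 30 or more. The tenotomy cells therefore lay mostly at the ends of the range, with few just above the threshold. Thinning each cell to 2000 UMIs before the gate gave 60 of 188 tenotomy cells, or 31.9%, and 0 of 312 sham cells. Among these sham cells, 3 cells would be 0.962%. Myogenic cells with 3 or more differentiation UMIs numbered 139 in the tenotomy library and 0 of 488 in the sham library (95% upper limit 0.753%). Of the 139, 65, or 46.8% (38.3 to 55.4), also carried at least 2 cycle UMIs.

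**Figure D1:**
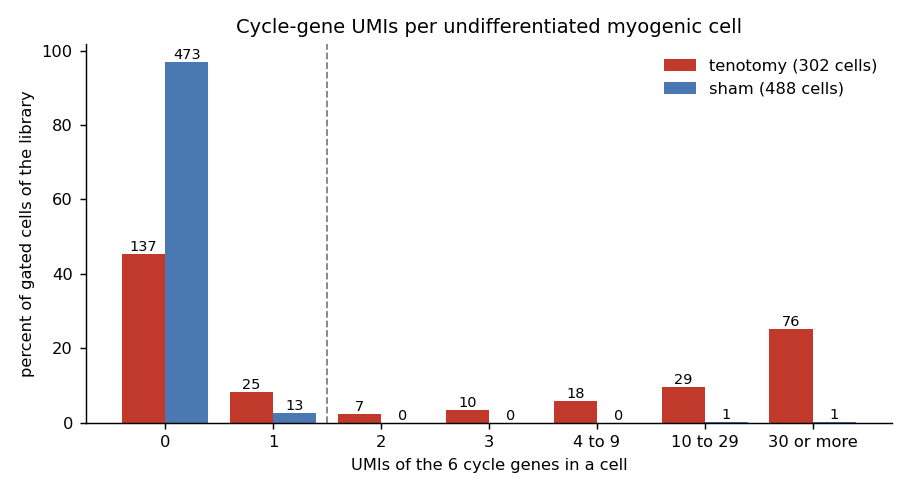
Percent of the undifferentiated myogenic cells of each library (y axis) in bins of UMIs over the 6 cycle genes (x axis), with cell numbers above the bars. Cells right of the dashed line are cycling, 140 of 302 in the tenotomy library and 2 of 488 in the sham library, and 76 tenotomy cells had 30 or more cycle UMIs.

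Other cells of the tenotomy library also carried cycle transcripts, at other shares. By the same threshold of 2 cycle UMIs, 36.9% (33.7 to 40.2) of 870 Pdgfra-positive cells, 15.8% (14.4 to 17.2) of 2634 Ptprc- and C1q-positive cells and 6.26% (4.98 to 7.74) of 1263 Pecam1- and Cdh5-positive cells were cycling in the tenotomy library. In the sham library these shares were 0.576% of 1563, 8.76% (4.61 to 14.8) of 137 and 0.310% of 2578. The threshold counts UMIs, and depth differed between these gates. In the tenotomy library the median was 27621 UMIs in cycling and 13026 in non-cycling Pdgfra-positive cells. It was 10484 and 6917.5 in C1q-positive cells and 4017 in all endothelial cells. Shares after thinning are not given for these gates, so the order of the shares is not matched for depth. The 2 cycling sham cells had 18424 and 26721 UMIs. The first held 62 cycle UMIs with 5 of Myod1, 4 of Cdh15 and 0 of Pax7, and the second held 17 cycle UMIs with 4 of Pax7, 4 of Myod1, 3 of Myf5 and 2 of Calcr. Both had more UMIs of G2 and mitosis genes than of S phase genes, 298 against 171 in the first and 60 against 27 in the second.

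Cycling cells held more RNA molecules than the non-cycling cells of their library, which bears on every share of cells given here. Their median was 17376.5 UMIs and 4291.5 genes, against 6813.5 UMIs and 2207.5 genes in non-cycling tenotomy cells and 6035 UMIs and 1830.5 genes in non-cycling sham cells. Levels are therefore given as CPM, the UMIs of a gene per 1000000 UMIs summed over the cells of a group, which rest on 2851463 UMIs in cycling tenotomy, 1355806 in non-cycling tenotomy and 3202302 in non-cycling sham cells. A comparison restricted to cells with at least 8000 UMIs (131 cycling and 60 non-cycling, medians 18089 and 12283 UMIs), was chosen after the data were seen. Median mitochondrial shares were close, at 5.05%, 4.82% and 5.11%. The doublet caller scrublet marked 5 of the cycling and 2 of the non-cycling tenotomy cells.

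Gate genes were used to choose the cells, so the check of the label against markers is partly fixed by the rule. All 12 myogenic marker genes stood above their level over all tenotomy cells in the cycling cells, and their summed level was 2053 CPM, against 2604 CPM in non-cycling tenotomy and 2747 CPM in non-cycling sham cells. Macrophage and monocyte genes summed to 637 CPM in cycling and 859 CPM in non-cycling tenotomy cells, and 0 of 12 in the cycling cells reached 10% of their level over all tenotomy cells, the limit set for free RNA. Lymphocyte genes Cd3e, Cd3d and Ms4a1 and Schwann genes Sox10 and Cdh19 were at 0 in cycling cells. Summed levels were 117 CPM in cycling and 426 CPM in non-cycling cells for neutrophil genes, 76.5 and 30.2 CPM for endothelial genes, 216 and 126 CPM for tenocyte genes and 730 and 872 CPM for pericyte and smooth muscle genes, of which Kcnj8, Myh11 and Actg2 were at 0 in cycling cells. The pericyte and smooth muscle sums were 88.5% and 106% of the level over all tenotomy cells, and the tenocyte sums 20.7% and 12.1%, with 1 member of each list above that level in the cycling cells. Mesenchymal progenitor genes summed to 892 CPM in cycling and 1281 CPM in non-cycling cells, 15.3% and 22.0% of the level over all tenotomy cells, and the part of these cell types or their RNA in the results was not tested. Of the barcodes, 29 occurred among the kept cells of both libraries, and 1 cycling tenotomy cell had a barcode that the sham file also held.

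Of the myogenic genes of the gate, Pax7, Myod1 and Cdh15 were present in cycling cells at levels close to those of the non-cycling cells, whereas Chrdl2 was low. These values helped to choose the cells and are a description. Pax7 (chr4:139737062-139833528, minus strand, mm10) was at 76.8 CPM (67.0 to 87.7) in cycling tenotomy, 96.6 CPM in non-cycling tenotomy and 118 CPM in non-cycling sham cells. Myod1 (chr7:46376474-46379099, plus strand) was at 178 CPM in cycling tenotomy, 195 CPM in non-cycling tenotomy and 271 CPM in non-cycling sham cells. Among cells with at least 8000 UMIs it stood the other way, at 178 CPM in cycling and 110 CPM in non-cycling cells, a 1.62-fold difference (1.30 to 2.04). Cdh15, the gene of the adhesion protein M-cadherin, was at 242, 240 and 96.5 CPM in the same order of groups.

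Myf5, a transcription factor of the lineage, and Chrdl2, which encodes a secreted BMP antagonist, followed another order. Myf5 was at 133 CPM in cycling tenotomy, 222 CPM in non-cycling tenotomy and 376 CPM in non-cycling sham cells. Chrdl2 (chr7:100006172-100034728, plus strand) was at 8.77 CPM (5.67 to 12.9) in cycling tenotomy, 100 CPM in non-cycling tenotomy and 387 CPM in non-cycling sham cells. Within the tenotomy library its level depended on depth, since non-cycling cells with at least 8000 UMIs held 17.6 CPM, against 8.54 CPM in cycling cells of that depth. Mki67 (chr7:135689784-135716361, minus strand) was at 407, 5.90 and 0.625 CPM and Top2a (chr11:98992943-99024189, minus strand) at 595, 2.95 and 0.937 CPM, as the gate requires. Per cell, Mki67 had a median of 336 CPM over the cycling tenotomy cells (quartiles 126 and 660 CPM) and 0 CPM over the non-cycling tenotomy cells.

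Single cells with both Pax7 and Myod1 were common among the cycling cells as sequenced. At least 1 UMI of each was found in 59 of 140 cycling tenotomy cells, or 42.1% (33.9 to 50.8), in 15.4% (10.2 to 21.9) of non-cycling tenotomy and in 11.5% (8.82 to 14.7) of non-cycling sham cells. After thinning to 2000 UMIs, which left out 2, 3 and 15 cells, the shares were 3.62% (1.19 to 8.25), 1.26% (0.153 to 4.47) and 1.91% (0.877 to 3.60), with overlapping intervals. In thinned cells Pax7 was seen in 20.3% of cycling tenotomy, 17.0% of non-cycling tenotomy and 18.3% of non-cycling sham cells, and Myod1 in 22.5%, 18.9% and 19.96%. Neither had a UMI in 1085 thinned endothelial cells, where 3 cells would be 0.276%, although that gate itself left out cells with 2 or more myogenic UMIs.

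Tenotomy cells next to the cycle threshold lay between the ends of the range. The 137 cells with 0 cycle UMIs held 869 CPM over the S phase list and 745 CPM over the G2 and mitosis list, and the 25 cells with 1 held 1341 and 1150 CPM. Just inside the threshold, the 17 cells with 2 or 3 cycle UMIs held 2429 and 1631 CPM, and the 123 cells with 4 or more held 5181 and 8128 CPM. Median depth followed the same order, at 6670, 10357, 12827 and 18089 UMIs.

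Outside the gate, 7333 genes were measured in the comparison of cycling with non-cycling tenotomy cells, which means at least 50 UMIs over both groups and a level in the higher group of at least 10% of that over all kept cells. Of these, 695 (9.48%) stood 2-fold or more above, and 313 (4.27%) 2-fold or more below, their non-cycling level, around a median log2 fold of 0.07. With cells of at least 8000 UMIs, 589 of 6992 were higher and 196 lower, and with cells thinned to 2000 UMIs, 146 of 1920 were higher and 161 lower. Of the 313, 292 stayed at least 2-fold lower without the cell that held the most UMIs of each gene. The cells were chosen on genes of the same libraries, so these counts are a description.

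Genes of DNA replication were higher almost without exception. Past 2-fold, 53 of 54 measured S phase genes were higher, 0 were lower, and the median log2 fold was 2.52. Pclaf was at 439 CPM in cycling and 14.0 CPM in non-cycling tenotomy cells, a 31.3-fold difference (19.98 to 52.2). Tk1, the thymidine kinase of the salvage pathway, was at 92.2 and 2.95 CPM, 31.3-fold higher (12.1 to 116). Rad51ap1 had 159 UMIs in cycling and 1 in non-cycling cells, a ratio of 75.6 (13.4 to 3005). Pcna, the sliding clamp of the replication fork, differed less, at 274 CPM in cycling and 84.1 CPM in non-cycling cells. The 1 gene within 2-fold was Slbp, which encodes the protein that binds the stem-loop of histone mRNAs, at 142 and 76.7 CPM. Of 20 listed replication-dependent histone genes 10 were measured and all 10 were higher, among them the linker histone gene Hist1h1b at 308 and 2.95 CPM. Most replication-dependent histone mRNAs carry no poly(A) tail, and near-identical copies can share reads, so their levels here are uncertain.

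Genes of G2 and mitosis differed most. Past 2-fold, 64 of 65 measured genes were higher and 0 lower, and the median log2 fold was 4.16. Pbk, a mitotic kinase, Kif11 and Nusap1 had 341, 338 and 262 UMIs in cycling cells and 0 in non-cycling cells. Against a floor of 3 UMIs over the group, these give ratios of 54.0, 53.6 and 41.5, which are not lower bounds. Cdca8, the gene of borealin in the chromosomal passenger complex, was at 165 and 2.21 CPM, a ratio of 74.3 (25.3 to 362). Plk1 and Aurkb, which encode kinases of mitotic entry and chromosome segregation, had 105 and 146 UMIs in cycling cells and 0 in non-cycling cells. The exception was Pttg1, the gene of the separase inhibitor securin, at 28.1 CPM in cycling, 33.2 CPM in non-cycling tenotomy and 47.5 CPM in non-cycling sham cells. The choice of cells by 6 cycle genes sets the direction in these lists, and none of the 6 is in a list count.

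Outside the phase lists, by the interval bound nearest to 1, the first 12 higher genes were Esco2, Shcbp1, Fbxo5, Aspm, Spag5, Cdca5, Asf1b, Gen1, Cip2a, Mns1, Trip13 and Nek2. Esco2 and Cdca5 encode the cohesin acetyltransferase and sororin, which hold sister chromatids together, and had 191 and 84 UMIs in cycling cells and 0 in non-cycling cells. Fbxo5 encodes EMI1, an inhibitor of the anaphase-promoting complex, and had 180 UMIs in cycling and 1 in non-cycling cells. Asf1b, a histone chaperone gene, was at 55.1 CPM in cycling and 1.48 CPM in non-cycling cells, a ratio of 37.3 (10.2 to 311).

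G1 regulators and CDK inhibitors differed member by member. Over all measured genes, 9.48% were higher and 4.27% lower past 2-fold. Of 10 measured G1 cyclin, kinase and pocket protein genes, 5 were higher and 0 lower past 2-fold, and the median log2 fold was 0.86. These were the E2F genes E2f2 and E2f4, the pocket protein genes Rbl1 and Rb1, and Cdk2. E2f2 was at 46.6 CPM in cycling, 5.90 CPM in non-cycling tenotomy and 0.937 CPM in non-cycling sham cells, 7.91-fold higher (3.90 to 18.7) in cycling than in non-cycling tenotomy cells. Ccnd1, the gene of cyclin D1, was at 197, 145 and 87.1 CPM, and Cdk4, which encodes its kinase partner, at 265, 171 and 61.8 CPM. Cdk6 was the same within error in both tenotomy groups, at 137 CPM (1.13-fold lower, 0.948 to 1.34) and 155 CPM, against 14.99 CPM in non-cycling sham cells.

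Among inhibitors, 3 genes of the INK4 family were higher. Of 7 measured inhibitor genes, Cdkn2c was 2.34-fold (1.64 to 3.41), Cdkn2d 2.14-fold (1.55 to 3.01) and Cdkn2a 2.09-fold (1.44 to 3.11) higher in cycling cells, while 0 were at least 2-fold lower. The counts of Cdkn2a cannot separate its INK4A and ARF transcripts. Cdkn1c (chr7:143458339-143461050, minus strand), which encodes the inhibitor p57, was at 76.8 CPM in cycling and 152 CPM in non-cycling tenotomy cells, 1.98-fold lower (1.63 to 2.40), against 44.3 CPM in non-cycling sham cells. It was at 2862 CPM in differentiating tenotomy cells, and 1 cell held 25.6% of its UMIs in the cycling cells. Cdkn1a, the gene of p21, was at 264 CPM in cycling and 226 CPM in non-cycling tenotomy cells, against 720 CPM in non-cycling sham cells.

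**Figure D2:**
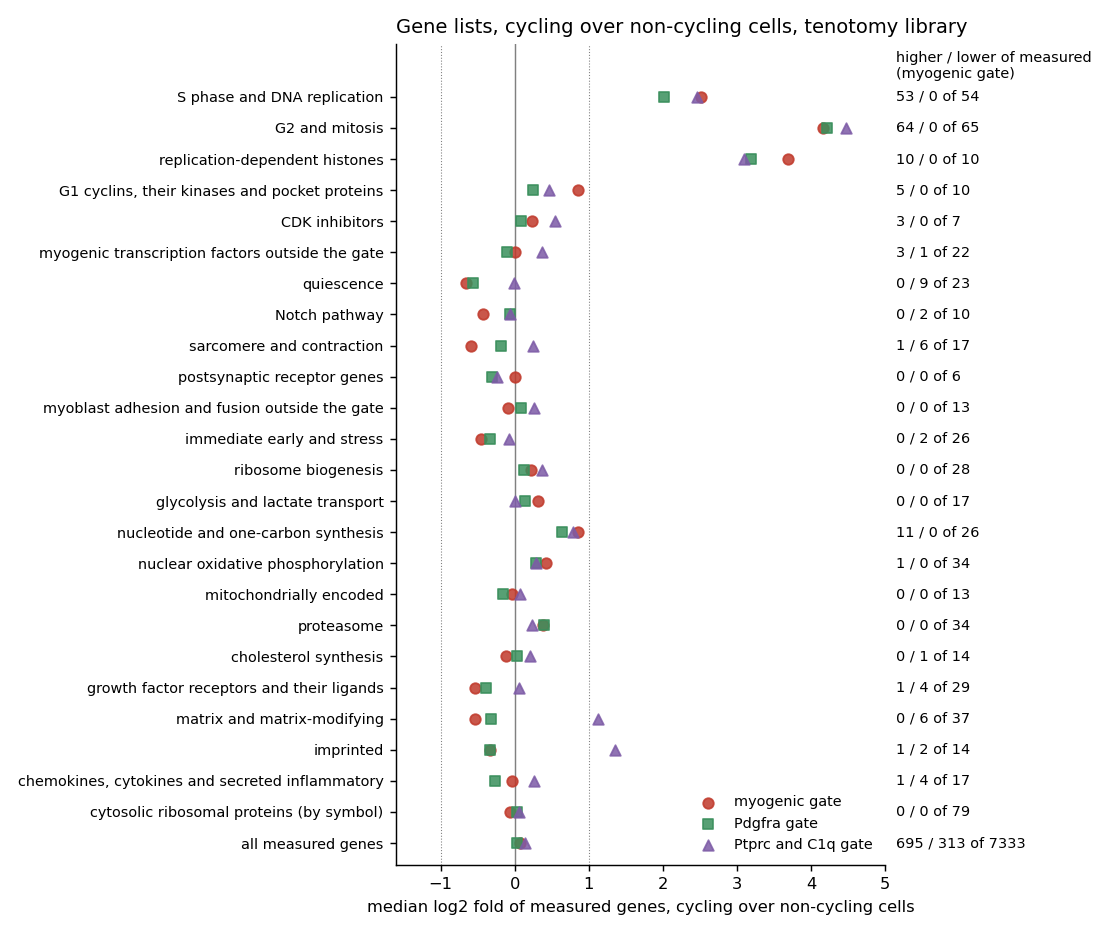
Median log2 fold (x axis) of the measured genes of each list, cycling over non-cycling cells of the tenotomy library, for the myogenic gate (circles), the Pdgfra gate (squares) and the Ptprc and C1q gate (triangles). Dotted lines mark 2-fold, and the numbers at the right give genes at least 2-fold higher and lower of those measured in the myogenic gate, where the S phase, G2 and mitosis and histone lists lie beyond 2-fold.

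Transcription factors of the myogenic lineage outside the gate were mostly alike in both groups. Of 22 measured, 3 were higher and 1 lower past 2-fold, and the median log2 fold was 0.00. Over all measured genes, 9.48% were higher and 4.27% lower, so these counts lie near those shares. Id1, which encodes an inhibitor of bHLH factors such as MYOD1, was at 109 CPM in cycling, 46.5 CPM in non-cycling tenotomy and 76.2 CPM in non-cycling sham cells, 2.35-fold higher (1.79 to 3.13) in cycling than in non-cycling tenotomy cells. Hes6, a bHLH gene, was at 62.4, 31.0 and 2.50 CPM, and its 2.02-fold difference (1.43 to 2.89) between the tenotomy groups was 1.42-fold (0.998 to 2.08) at 8000 UMIs or more. Tcf3, the gene of the E proteins that pair with MYOD1, was 2.02-fold higher (1.46 to 2.84), but its log2 fold was −0.09 after thinning to 2000 UMIs. Msc, the gene of the bHLH repressor musculin, was 2.60-fold lower (2.21 to 3.06), at 96.8 and 252 CPM.

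Genes associated with quiescent satellite cells were lower as a group, and not only in the myogenic gate. In cycling over non-cycling Pdgfra-positive cells this list had a median log2 fold of −0.56 over 19 measured genes. In C1q-positive cells it was −0.02 over 17. Past 2-fold, 9 of 23 measured genes were lower and 0 higher in cycling myogenic cells, and the median log2 fold was −0.65. Among all 7333 measured genes, 4.27% were lower and 9.48% higher. Gpx3, an extracellular glutathione peroxidase gene (chr11:54902453-54910377, plus strand), was at 200 CPM in cycling tenotomy, 1059 CPM in non-cycling tenotomy and 1804 CPM in non-cycling sham cells, 5.31-fold lower (4.81 to 5.86) in cycling than in non-cycling tenotomy cells. Sdc4, the gene of the heparan sulfate proteoglycan syndecan 4, was at 535, 1457 and 3466 CPM, Apoe at 325, 988 and 2229 CPM, and Vcam1, an adhesion molecule gene, at 267, 600 and 604 CPM. Calcr, the calcitonin receptor gene, had only 10 UMIs in cycling and 23 in non-cycling tenotomy cells and fell below the minimum, with 3.51, 17.0 and 61.2 CPM in the same order.

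These differences were smaller among deep cells. With cells of at least 8000 UMIs, 3 of 21 measured members were at least 2-fold lower and 1 higher, and the median log2 fold was −0.55. Gpx3 was then 2.46-fold lower (2.16 to 2.80), Vcam1 1.78-fold (1.57 to 2.01), Apoe 1.63-fold (1.45 to 1.82) and Sdc4 1.45-fold (1.32 to 1.59). With every cell thinned to 2000 UMIs, 4 of 8 were lower and the median was −1.31. The counts over all measured genes in both settings were given above, after those for the 7333 genes. Members near the same level in both groups included Heyl, at 63.5 and 70.8 CPM, and Cdkn1b, the gene of p27, at 52.3 and 45.0 CPM.

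Levels over bins of cycle UMIs show where in the tenotomy library these differences lay. Gpx3 was at 1229, 469, 371, 112 and 180 CPM in cells with 0, 1, 2 to 9, 10 to 29 and 30 or more cycle UMIs. Sdc4 was at 1636, 832, 635, 487 and 523 CPM over the same bins, and Meg3 at 1021, 340, 222, 338 and 247 CPM. Most of each difference was thus between cells with 0 cycle UMIs and cells with 1. Phgdh, the entry enzyme gene of serine synthesis, went the other way at 60.8, 126, 134, 195 and 314 CPM, and Pax7 was at 97.8, 92.5, 79.4, 80.9 and 74.9 CPM with overlapping intervals. Median depth rose over these bins as well, at 6670, 10357, 12827, 15740 and 22229.5 UMIs, and depth and cycle state cannot be told apart here.

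**Figure D3:**
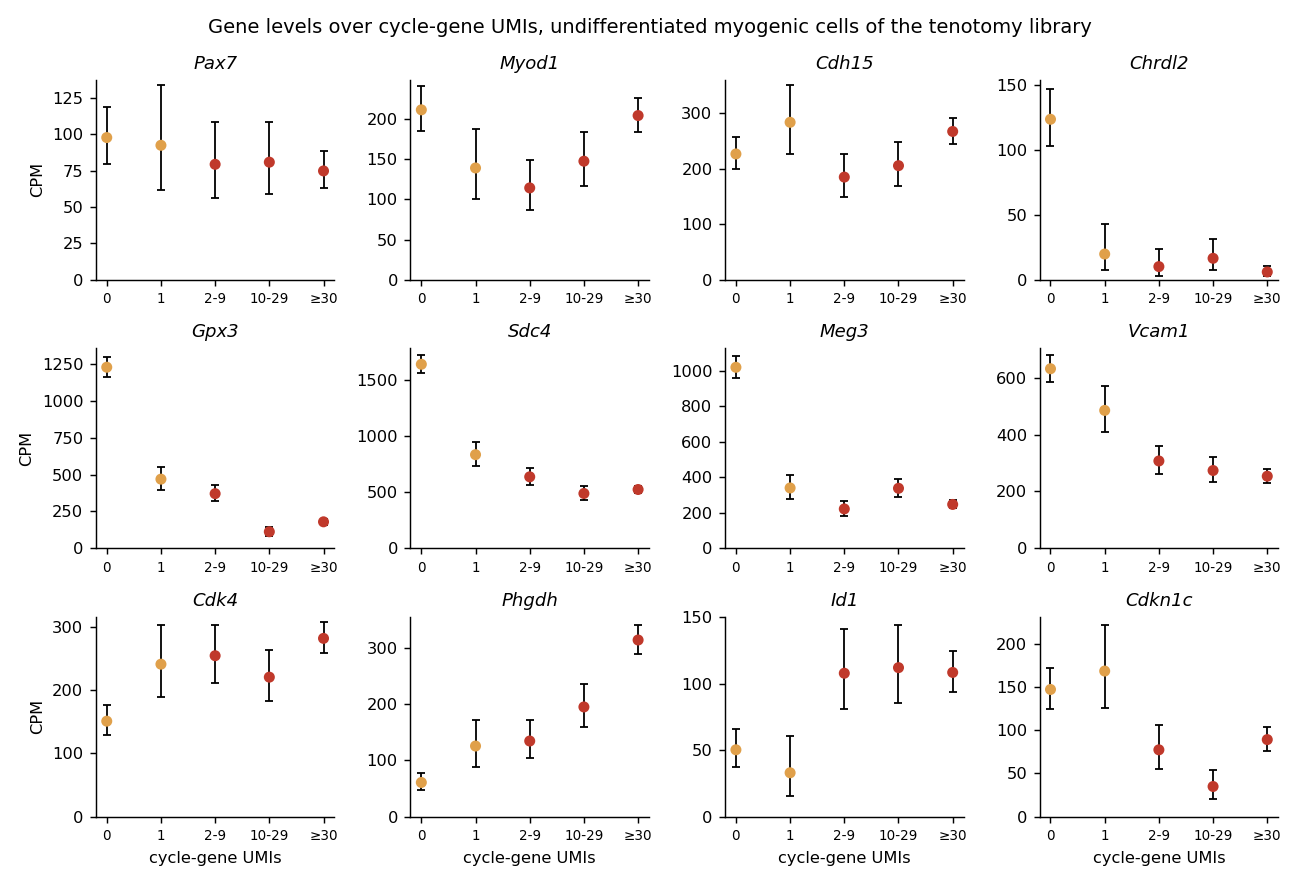
Level of 12 genes (y axes, CPM of the summed UMIs with exact 95% Poisson intervals) in undifferentiated myogenic cells of the tenotomy library, over bins of cycle-gene UMIs (x axes, 137, 25, 35, 29 and 76 cells). Pale points are non-cycling and dark points cycling cells, and Gpx3, Sdc4, Meg3 and Chrdl2 stand highest in the bin of 0 cycle UMIs.

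Notch pathway and imprinted genes gave a few lower members. Of 10 measured Notch genes, 2 were lower and 0 higher past 2-fold, and the median log2 fold was −0.43. Over all measured genes, 4.27% were lower and 9.48% higher. Jag1, which encodes a Notch ligand, was at 14.7 CPM in cycling and 46.5 CPM in non-cycling tenotomy cells, 3.16-fold lower (2.10 to 4.78). Hey1, a Notch target gene, was 2.04-fold lower, but its log2 fold was 0.60 with cells of at least 8000 UMIs. The receptor gene Notch1 was at 96.4 and 99.6 CPM. Of 14 imprinted genes, 1 was higher and 2 were lower. Meg3, a maternally expressed long noncoding RNA (chr12:109541001-109571726, plus strand), was at 260 CPM in cycling tenotomy, 869 CPM in non-cycling tenotomy and 3192 CPM in non-cycling sham cells, and its neighbour Rian at 49.5, 130 and 294 CPM. With cells of at least 8000 UMIs Meg3 was 1.85-fold lower (1.63 to 2.09), against 3.34-fold (3.04 to 3.67) over all cells. H19, the 1 higher, was at 113, 51.6 and 6.56 CPM.

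Of 29 measured receptor and ligand genes, 4 were lower and 1 higher past 2-fold, and the median log2 fold was −0.54. The shares over all measured genes were 4.27% lower and 9.48% higher. Fgfr1, an FGF receptor gene, was at 185 CPM in cycling and 457 CPM in non-cycling tenotomy cells, 2.47-fold lower (2.20 to 2.78), and 1.85-fold lower at 8000 UMIs or more. Igfbp5, which encodes an IGF binding protein, was at 310 and 1060 CPM, 3.42-fold lower (3.14 to 3.72), and 1.72-fold lower (1.53 to 1.93) at 8000 UMIs or more. The FGF receptor gene Fgfr4 and the HGF receptor gene Met were within error, at 103 and 114 CPM and at 75.1 and 66.4 CPM. Of 37 matrix genes, 6 were lower and 0 higher, with a median of −0.54, led by the basement membrane collagen genes Col4a1 at 185 and 537 CPM and Col4a2 at 72.2 and 193 CPM. With cells of at least 8000 UMIs, Col4a1 was 2.05-fold lower (1.77 to 2.36) and Col4a2 1.90-fold lower (1.498 to 2.39). Matrix counts moved with the gate. With Ptprc, Pecam1 and Pdgfra at 0 UMIs 18 of 37 genes were lower, and with at least 4 myogenic UMIs 3 of 36 were lower and 3 higher. Shares over all genes under these gates are not given here, so a move of this list apart from other genes was not tested.

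Spp1, the gene of osteopontin, cannot be given a direction. It was at 555 CPM in cycling, 1213 CPM in non-cycling tenotomy and 1.87 CPM in non-cycling sham cells. However, 1094 of the 1644 UMIs in non-cycling cells lay in 1 cell, which also held 215 UMIs of the bone gene Ibsp and 114 of Mmp13, had 2 myogenic UMIs and was called by scrublet. Without the highest cell of each group Spp1 was higher in cycling cells, at a log2 fold of 0.36.

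Enzymes of serine, one-carbon and nucleotide synthesis, which supply precursors of DNA, were higher in part. Past 2-fold, 11 of 26 measured genes were higher and 0 lower, and the median log2 fold was 0.85. The shares over all measured genes were 9.48% higher and 4.27% lower. With cells of at least 8000 UMIs, 9 of 26 were higher. Of the 11, Cad and Prps2 had log2 folds of −0.16 and −0.38 after thinning to 2000 UMIs, against 1.05 and 1.13 over all UMIs. Phgdh (chr3:98313170-98339990, minus strand) was at 260 CPM in cycling tenotomy, 75.2 CPM in non-cycling tenotomy and 18.4 CPM in non-cycling sham cells, 3.46-fold higher (2.81 to 4.30) in cycling than in non-cycling tenotomy cells. Psat1, which encodes the next enzyme of that path, was 2.43-fold higher (1.89 to 3.16), and the mitochondrial folate enzyme genes Shmt2 and Mthfd2 were 2.84-fold (1.94 to 4.27) and 2.35-fold (1.86 to 2.99) higher. Nme2, a nucleoside diphosphate kinase gene, was at 1999 and 1701 CPM.

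Lists of general metabolism and protein turnover lay within 2-fold. Of 34 nuclear oxidative phosphorylation genes 1 was at least 2-fold higher, the cytochrome c1 gene Cyc1 at 332 and 166 CPM, with a median log2 fold of 0.42. Glycolysis (17 measured), proteasome (34) and ribosome biogenesis (28) had 0 genes past 2-fold either way and medians of 0.32, 0.38 and 0.22, and 79 cytosolic ribosomal protein genes a median of −0.07. Npm1, the nucleolar gene nucleophosmin, was at 2380 CPM in cycling, 1689 CPM in non-cycling tenotomy and 1002 CPM in non-cycling sham cells. Immediate early and stress genes had 2 of 26 at least 2-fold lower, Fosb and Maff, against 4.27% of all measured genes, and a median of −0.46.

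Contractile genes summed to 2382 CPM in cycling tenotomy, 2522 CPM in non-cycling tenotomy and 1356 CPM in non-cycling sham cells, against 13476 CPM in differentiating tenotomy cells. Of 17 measured, 1 was higher and 6 were lower past 2-fold, against 9.48% and 4.27% of all measured genes. However, for 5 of the lower ones, Acta1, Myl1, Tnnc2, Mylpf and Tnnt3, more than 50% of the non-cycling UMIs came from 1 cell. Acta1, the skeletal actin gene, was at 15.8 CPM in cycling and 111 CPM in non-cycling cells, with 127 of 151 non-cycling UMIs in 1 cell, against 1952 CPM in differentiating cells. Tpm1, a tropomyosin gene, was at 546 CPM in cycling and 253 CPM in non-cycling tenotomy cells, 2.16-fold higher (1.92 to 2.44). Ttn, the gene of the giant protein titin, was at 327 CPM in cycling tenotomy, 224 CPM in non-cycling tenotomy and 2.19 CPM in non-cycling sham cells. Des, the gene of desmin, which myoblasts already express, was at 937, 1070 and 836 CPM in cycling tenotomy, non-cycling tenotomy and non-cycling sham cells. Postsynaptic genes (acetylcholine receptor genes, Rapsn and Musk) and myoblast adhesion and fusion genes had 0 of 6 and 0 of 13 measured members past 2-fold.

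Among the 12 lower genes with the highest interval bounds, 7 owed more than 50% of their non-cycling UMIs to 1 cell, namely Ibsp, Mmp13, Sfrp5, Retnlg, Serpine2, Acta1 and Car3. The others included Rgs5, Nppc, Vtn and Arl4d. A further list, chosen after the values were seen, took lower genes for which no cell held 20% or more of the UMIs in either group. It was led by Vtn, the vitronectin gene, at 3.86 and 41.3 CPM, Arl4d, a small GTPase gene, at 37.5 and 257 CPM, and Kdm7a, a histone demethylase gene, at 18.2 and 122 CPM. Gpx3, Thbd, Chodl, Cxcl1 and Serping1 followed among the first 15, and the smallest difference of the 15 was that of Serping1, 3.68-fold (3.19 to 4.25). Nppc, the C-type natriuretic peptide gene, was at 7.71 CPM in cycling tenotomy, 70.1 CPM in non-cycling tenotomy and 711 CPM in non-cycling sham cells, and was within error at 8000 UMIs or more, 1.32-fold lower (0.502 to 3.12). At that depth Arl4d was 2.52-fold lower (1.85 to 3.41), against 6.86-fold (5.51 to 8.601) over all cells.

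Non-cycling cells of the libraries were compared as well. Of 6730 genes measured there, 1180 (17.5%) stood 2-fold or more above, and 541 (8.04%) 2-fold or more below, the sham level in the tenotomy library, around a median log2 fold of 0.23. Relative to that median, 768 were higher and 784 lower. In the quiescence list 13 of 24 were lower, with a median of −1.05, and in the immediate early and stress list 20 of 25, with a median of −1.72. Of 34 oxidative phosphorylation genes 23 were higher, with a median of 1.19, and of 33 proteasome genes 17, with a median of 1.01. Matrix genes were higher in 24 of 35, with a median of 1.36. In that order, the cycling over non-cycling medians in the tenotomy library were −0.65, −0.46, 0.42, 0.38 and −0.54, so the matrix list was higher in non-cycling tenotomy than in non-cycling sham cells and lower in cycling than in non-cycling tenotomy cells. Both comparisons use the non-cycling tenotomy cells.

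Members varied in phase. Over the S phase and the G2 and mitosis lists, which leave out the 6 gate genes, 83 of 140 cycling cells, or 59.3% (50.7 to 67.5), held more UMIs of G2 and mitosis genes, 55 held more of S phase genes and 2 held equal numbers. In 51 cells the sums were within 1.5-fold of each other, so the classes are ranges and not types. The medians were 141.5 UMIs of G2 and mitosis genes and 77.5 of S phase genes, against 4 and 4 in non-cycling tenotomy cells. The share with more G2 and mitosis UMIs was 69.2% (63.8 to 74.2) of 321 cycling Pdgfra-positive cells, 54.3% (49.4 to 59.2) of 416 cycling C1q-positive cells and 73.8% (61.5 to 84.0) of the 65 cycling cells with differentiation transcripts. The lists differ in summed abundance, so these shares compare cell groups and do not give the time spent in a phase.

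**Figure D4:**
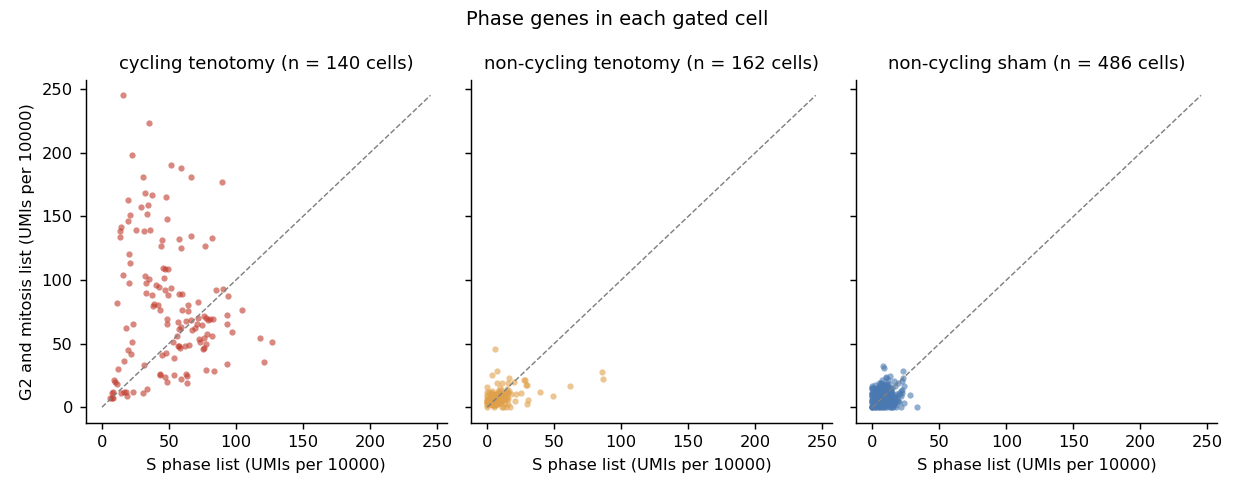
UMIs of G2 and mitosis genes (y axis) against UMIs of S phase genes (x axis), per 10000 UMIs of a cell, for 140 cycling tenotomy, 162 non-cycling tenotomy and 486 non-cycling sham cells. The dashed line marks equal sums, and cycling cells spread along both axes while most non-cycling cells lie near the origin.

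Cells with more G2 and mitosis UMIs differed in many of the readouts taken outside both lists. Median depth was 17156 UMIs in them and 20656 UMIs in cells with more S phase UMIs. Ccnb1, the gene of cyclin B1, was at 148 and 31.9 CPM in these 2 classes, 4.65-fold higher (3.29 to 6.73), and Cenpf, a kinetochore gene, at 304 and 76.3 CPM. Both are gate genes and genes of G2 and mitosis, so a split by such genes favours this direction. Cdkn1c was at 111 and 30.2 CPM, 3.69-fold higher (2.57 to 5.44), with 30.8% of its UMIs in 1 cell of the first class, and 5.81-fold higher (3.44 to 10.5) without the highest cell of each class. Cdh15 was 1.67-fold (1.42 to 1.98), Myod1 1.47-fold (1.22 to 1.78) and Pax7 1.41-fold (1.06 to 1.90) higher. Ribosome biogenesis genes summed to 5968 CPM in cells with more G2 and mitosis UMIs and 7437 CPM in cells with more S phase UMIs, and replication-dependent histones to 973 and 1164 CPM.

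Cycling cells of other lineages in the tenotomy library shared part of the higher genes. Over 6895 genes measured in all 3 gates, 643 were at least 2-fold higher in cycling than in non-cycling myogenic cells, 340 in the Pdgfra gate and 610 in the C1q gate, where 4.61% and 7.94% of all genes measured in that gate were. Of the 643, 309 were also higher in the Pdgfra gate, which is 48.1% of the myogenic and 90.9% of the Pdgfra genes, and 326 in the C1q gate, which is 50.7% and 53.4%. In all 3 gates 257 genes were higher. All 3 gates split cells by the same 6 cycle genes, so overlap in phase genes follows from the choice of cells. These counts include the S phase, G2 and mitosis and histone lists. The median log2 folds in the myogenic, Pdgfra and C1q gates were 2.52, 2.02 and 2.46 for S phase genes. For G2 and mitosis genes they were 4.16, 4.21 and 4.465. Of 243 genes lower in the myogenic gate, 40 were lower in the Pdgfra gate and 3 in the C1q gate. Those gates had 82 and 9 lower genes among the same 6895. Over all 10413 and 10284 genes measured in those gates, 3.5% and 0.749% were lower. These shares, and the 4.61% and 7.94% above, rest on more genes than the counts over 6895. Median depth was 27621 UMIs in cycling and 13026 UMIs in non-cycling Pdgfra-positive cells, and 10484 and 6917.5 UMIs in C1q-positive cells. The gates differ in cell numbers and depth, so the counts are not a measure of how alike the cells are.

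Genes at least 2-fold apart in the myogenic gate and within 1.5-fold in both other gates were listed after the values were seen, 116 higher and 112 lower. The higher ones with the highest bounds included Chmp6, an ESCRT-III gene, at 35.1 and 5.90 CPM in cycling and non-cycling myogenic cells, Rnf126, a ubiquitin ligase gene, at 56.8 and 19.2 CPM, and Id1. The lower ones included Cxcl1, a chemokine gene, at 136 and 522 CPM, and Sdc4. With cells of at least 8000 UMIs Cxcl1 was 2.07-fold lower (1.74 to 2.46) and Sdc4 1.45-fold lower (1.32 to 1.59). No test of the difference between gates was possible with 1 library.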

How the data were processed

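RNA of single mononuclear cells was counted with 10x Chromium 3′ v3.1 chemistry in 1 tenotomy and 1 sham library. The authors deposited UMI counts per gene and cell, made with Cell Ranger 4.0.0 on mm10, per the submitters' processing notes; the values are whole and not normalized. The files held 94556283 UMIs in 11950 tenotomy and 47781353 UMIs in 8463 sham barcodes, of which 11237 and 7738 passed the cell filters, with medians of 5964 and 4942.5 UMIs. The cell rule, members and gene lists were chosen with earlier results of these data known. Cells were not clustered. Doublets were not removed; scrublet in scanpy 1.11.5, at a threshold of 0.2122 taken from the tenotomy library, marked 320 tenotomy and 190 sham cells. The files shared 33 barcodes.

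UMIs were summed over the cells of a group and divided by their total (CPM) with python 3.11.15, numpy 2.4.6 and scipy 1.17.1. Intervals are exact Poisson for levels, Clopper-Pearson for shares and conditional binomial for folds, at 95%, and cover counting error only. A gene counted as measured with at least 50 UMIs over both groups and, in the higher group, at least 10% of its CPM over all kept cells of the library, as a limit on free RNA. Called means at least 2-fold. Against 0 UMIs, a fold was computed against 3 UMIs over the group. Outside the gate and phase lists, 12 genes each way were named, ranked by the interval bound closest to 1, with at most 4 each way from a list and a set of genes always named; other list members and those said to be chosen afterwards were chosen after their values were seen. A few genes that this rule names are not reported here. The same comparison was made in tenotomy cells with at least 2 Pdgfra UMIs and in cells with at least 2 UMIs of Ptprc and 2 over C1qa, C1qb and C1qc; endothelial cells had at least 2 of Pecam1 and 1 of Cdh5, and all these gates had fewer than 2 myogenic UMIs and at most 1 UMI of each other excluded gene. The fold computation was tested on simulated data. With 1 library a group, no p-value, standard error or replicate check was possible. The alternatives of at least 8000 UMIs and of leaving out the highest cell of each gene were chosen after seeing the data.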

Additional observations from a re-analysis of the deposited data

How the results depend on the processing

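No paired analysis was possible because each treatment had 1 library, and the labels do not tie cells to the 5 mice. The cycling share of tenotomy gate cells was 31.9% after thinning to 2000 UMIs before the gate, 54.6% with at least 1 cycle UMI, 39.1% with at least 5 and 53.3% with at least 4 myogenic UMIs, against 46.4% as reported. In the sham library it was 0 of 312 cells after thinning and 3.07% with at least 1 cycle UMI. Genes at least 2-fold higher and lower in cycling than in non-cycling tenotomy cells numbered 146 and 161 of 1920 with thinned cells, and 1389 and 781 of 11049 with no free RNA limit and a minimum of 10 UMIs. With cells of at least 8000 UMIs 196 of 6992 were lower. With thinned cells 1 list, quiescence, had a median at least 2-fold lower. Between non-cycling tenotomy and sham cells, 332 were higher and 233 lower of 3183 with thinned cells, and 768 higher after division by the median fold.

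Spp1 reversed, to a log2 fold of 0.42 without scrublet calls, 0.41 with at least 4 myogenic UMIs, 1.05 with at most 5% mitochondrial UMIs and 0.36 without its highest cells. Tnnt1 stood at 0.13 with at most 5% mitochondrial UMIs, and Retnlg at 0.50 with cells of at least 8000 UMIs and 0.64 without its highest cells. The causes were not tested, apart from the Spp1 and Retnlg values without the highest cell. Over all alternatives the log2 fold ran from −2.90 to −1.30 for Gpx3, −1.82 to −0.54 for Sdc4, 1.41 to 2.46 for Phgdh, −0.55 to 0.16 for Pax7 and −0.57 to 0.70 for Myod1. The 59.3% of cycling cells with more G2 and mitosis UMIs was 62.3% thinned and 60.7% without scrublet calls. Depth limits what non-cycling cells show. For a gene with 0 UMIs in the non-cycling tenotomy cells, the exact Poisson interval reaches up to 2.72 CPM.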
